A study of Mus musculus with 9 samples.

Results

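The matrix proteases and their inhibitors were taken as the protein-coding genes whose GENCODE M1 symbol begins with Mmp, Adam, Adamts, Adamtsl or Timp directly followed by a digit and which were listed in at least 1 of 2 deposited result tables. This rule found 37 genes among the 13643 genes listed in either table, of 83 such genes in the annotation. Of the 37 genes, 35 were listed in both tables and 28 averaged 10 or more normalized counts in each. Listed were 14 of 32 Adam, 10 of 19 Adamts, 2 of 5 Adamtsl, 8 of 23 Mmp and 3 of 4 Timp genes. The tables come from RNA-seq of AML12, a mouse hepatocyte line made from a mouse carrying a human TGFA transgene and grown as a single cell type without the stellate, endothelial and immune cells of liver. The 9 libraries fall into 3 groups of 3: control cells, cells with shRNA 1 and cells with shRNA 2. Both hairpins are directed against *Srrm2*, which encodes a protein of nuclear speckles. The titles call the control cells only Ctrl, and whether they carried a hairpin or virus is not known from the titles. The cells carrying the *Srrm2* hairpins had been infected with shRNA-containing lentivirus for 5 days, and no infection time is recorded for the control cells. Nothing in the labels says whether the 3 libraries of a group came from separate cultures.

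Matrix metalloproteases (Mmps) and the Adam and Adamts families are zinc-dependent endopeptidases made as inactive precursors. Mmps cut collagens, laminins and other matrix and cell surface proteins. Adams are membrane proteins, and several release growth factors, cytokine receptors and adhesion molecules from the cell surface. Adamts enzymes are secreted, and several cut the proteoglycans aggrecan and versican or process procollagens, whereas Adamts-like proteins lack the protease domain. Timps bind the active site and block it. In liver, these enzymes are known for remodelling the matrix during fibrosis and regeneration.

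Each table gives a single mean normalized count per gene over the 3 control and 3 shRNA libraries together. The titles name a single set of 3 control libraries and do not say which libraries entered which table. The same controls were assumed in both tables, although the descriptions of 2 control libraries point to tables of further hairpins. The means summed to 6144608 normalized counts in the shRNA 1 table and 6393456 in the shRNA 2 table, and the depth of single libraries is not known from them. The study reported lower *Srrm2* mRNA and protein with both hairpins. Here the pooled mean of *Srrm2* was 3428 in the table of shRNA 1 and 3759 in that of shRNA 2, so depletion could not be checked by library. All values below are such pooled means. They have no replicate check, no test and no standard deviation, and they do not give the means with a hairpin and with the control separately. In bulk RNA, fewer cells expressing a gene and less RNA per cell cannot be told apart.

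The active site of these proteases is encoded in a short stretch in which 3 histidines hold the zinc ion. Its signature (histidine, glutamate, any 2 residues, histidine, any 2 residues, glycine, any 2 residues, histidine) was searched in the GENCODE M1 coding sequences. It was found in 24 of the 37 genes, against 0.315% of 21918 proteins. These were all 8 listed Mmps, 10 of the 14 listed Adams and 6 of the 10 listed Adamts genes. The members were chosen by family name and are themselves among the proteins searched, so these shares are a description and not a test. Allowing any residue in place of the glycine, a choice made after seeing the first result, added 4 Adamts genes, *Adamts1*, *Adamts4*, *Adamts9* and *Adamts15*, and raised the share of all proteins to 0.415%. In each of the 4, asparagine stood in that place. The remaining 9 genes were the 3 Timps, the 2 Adamts-like genes and *Adam4*, *Adam11*, *Adam23* and *Adam32*. The 33 coding bases of the site are shown for the most abundant Adam and Mmp and for most of the genes that differed between the tables, from the mouse reference coding sequences, with the 3 histidine codons, the glutamate codon and the glycine or asparagine codon in capitals.
Mmp14: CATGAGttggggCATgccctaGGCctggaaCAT
Mmp13: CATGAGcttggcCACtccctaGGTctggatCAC
Mmp11: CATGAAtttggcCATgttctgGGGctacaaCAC
Mmp7: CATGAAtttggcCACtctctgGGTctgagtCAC
Adam9: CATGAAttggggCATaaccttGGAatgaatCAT
Adam12: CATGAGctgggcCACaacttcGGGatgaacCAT
Adamts7: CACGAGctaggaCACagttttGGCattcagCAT
Adamts9: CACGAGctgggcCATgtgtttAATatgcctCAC

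Expression was compared between genes as the mean normalized count per kilobase of merged exon, averaged over both tables after the table of shRNA 2 had been divided by 1.05, the median ratio of the tables. *Adam9*, *Timp2*, *Mmp14*, *Adam10* and *Timp1* stood highest and together held 74.4% of the summed level of 2536. The median over the 35 genes listed in both tables was 18.8 per kilobase with quartiles of 5.21 and 49.6, below the median of 48.4 (quartiles 15.7 and 114) of the 12505 protein-coding genes listed in both. Thus 26 of the 35 genes lay under the median of protein-coding genes and 5 at or above their 75 percentile. By family, the Adams held 44.4% of the summed level, the Timps 23.1%, the Mmps 22.1%, the Adamts genes 9.36% and the Adamts-like genes 1.02%.

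**Figure D1:**
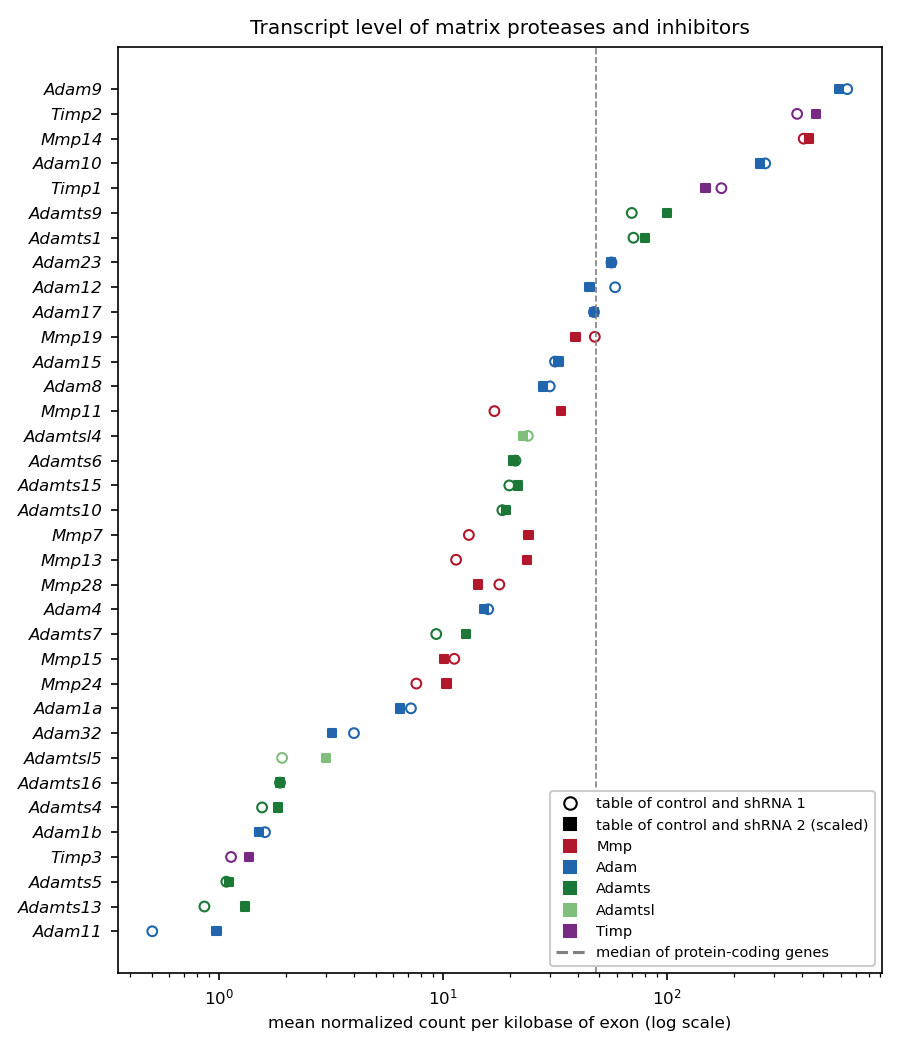
Mean normalized count per kilobase of exon (log axis) of the 35 genes listed in both tables, with open circles for the table of control and shRNA 1, filled squares for the scaled table of control and shRNA 2, colours for families and a dashed line at the median of protein-coding genes. *Adam9* stands highest at 613 as the mean of both tables, *Adam11* lowest at 0.738, and the circle and square of *Mmp13*, *Mmp11* and *Mmp7* lie furthest apart among genes with at least 10 normalized counts.

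Among the inhibitors, *Timp2*, which blocks Mmps and also joins Mmp14 at the cell surface to activate Mmp2, led with 423 per kilobase, the 95.3 percentile of protein-coding genes. *Timp1*, a secreted inhibitor of most Mmps and a known response gene of injured liver, followed at 162 per kilobase, so the level of *Timp2* was 2.61 times that of *Timp1*. *Timp3*, which is bound to the matrix and also blocks Adam17 and several Adamts enzymes, was at 1.2 per kilobase, with means of 9.21 normalized counts in the shRNA 1 table and 11.6 in the shRNA 2 table. *Timp4* was in neither table. The inhibitor transcripts were therefore almost entirely those of *Timp2* and *Timp1*. *Timp2* lies at chr11:118162383-118217054 and *Timp1* at chrX:20447292-20451861 in NCBIM37, the assembly of mm9 on which all gene positions here are given.

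Among the Mmps, *Mmp14*, the membrane-type collagenase at chr14:55050441-55060095, was at 420 per kilobase, 9.68 times the next Mmp and 0.995 times *Timp2*. The other listed membrane-type genes, *Mmp15* and *Mmp24*, were at 10.7 and 9.0 per kilobase. Both gelatinases, *Mmp2* and *Mmp9*, which cut denatured and basement membrane collagen, were in neither table. *Mmp2* is the substrate that Mmp14 and Timp2 are known to activate together. *Mmp19* was at 43.4 and *Mmp28*, epilysin, at 16.1 per kilobase. *Mmp11*, stromelysin-3, which furin activates inside the cell, was at 25.3, *Mmp7*, matrilysin, a small Mmp without the hemopexin domain, at 18.6, and *Mmp13*, the main collagenase of rodents, at 17.6. The smallest means listed were 1.56 and 1.92 normalized counts, so genes in neither table are not analysed here and were not shown to be silent.

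*Mmp13* and *Mmp7* bound a cluster of 10 Mmp genes that spans 427 kb of chromosome 9. *Mmp13* lies at chr9:7272514-7283333 and *Mmp7* at chr9:7692086-7699585, both on the plus strand. The 8 Mmp genes between them, *Mmp12*, *Mmp1b*, *Mmp3*, *Mmp1a*, *Mmp10*, *Mmp8*, *Mmp27* and *Mmp20*, were in neither table. Both end genes were higher in the table of shRNA 2, as described below.

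Among the Adams with a protease site, *Adam9* (chr8:26060083-26127394) was at 613 per kilobase, the 96.9 percentile of protein-coding genes. *Adam10* (chr9:70526804-70628036), the main sheddase of Notch and cadherins, was at 268 and *Adam17* (chr12:21329370-21379493), the sheddase of TNF and EGF receptor ligands, at 47.3. The level of *Adam9* was 2.29 times that of *Adam10*, and *Adam10* was 5.66 times *Adam17*. *Adam12*, meltrin alpha, was at 51.9, *Adam15* at 32.3 and *Adam8* at 29.0 per kilobase. *Adam1a* and *Adam1b*, which are paralogous single-exon genes known from testis, were at 6.82 and 1.56, and reads that fit both equally would have been dropped by the authors' step that kept unique alignments. *Adam33* and *Adam21* were listed in the table of shRNA 2 alone, at 2.13 and 2.32 normalized counts, close to the smallest mean listed there.

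Among the Adams without a protease site, *Adam23*, an adhesion protein known from neurons, was at 56.4 per kilobase, *Adam4* at 15.6, *Adam32* at 3.60 and *Adam11* at 0.738. *Adam4* overlaps *Synj2bp* and *Cox16* on its own strand. Hence these catalytically inactive members ranged from above the protein-coding median down to the lowest level of the 35 genes listed in both tables.

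Among the proteoglycan-cleaving Adamts genes, *Adamts9* (chr6:92722693-92893486) was at 84.9 per kilobase, *Adamts1* (chr16:85794072-85803358) at 75.4 and *Adamts15* at 20.7. The aggrecanases *Adamts4* and *Adamts5* were far lower, at 1.70 and 1.09 per kilobase. All 3 procollagen N-proteinases, *Adamts2*, *Adamts3* and *Adamts14*, were in neither table. Of the other Adamts genes, *Adamts6* was at 20.9, *Adamts10* at 18.8, *Adamts7*, which cuts cartilage oligomeric matrix protein, at 11, and *Adamts16* at 1.87. *Adamts13*, the protease of von Willebrand factor, was at 1.08. The Adamts-like genes *Adamtsl4* and *Adamtsl5* were at 23.4 and 2.46. Of the 4 genes with asparagine in the zinc site, *Adamts9* and *Adamts1* thus stood above every listed Adamts gene with glycine there, whereas *Adamts15* and *Adamts4* did not.

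If both tables hold the same controls on the same scale, any difference between a gene's scaled means comes from the shRNA libraries. Whether such a difference exceeds the spread between libraries could not be tested with the pooled means. The ratio of the scaled means (table of shRNA 2 over table of shRNA 1) is diluted by the shared controls, so a ratio above 1 is the least fold by which the shRNA 2 group exceeded the shRNA 1 group. The difference of the group means is 2 times the difference of the scaled means. Of the 28 members, 6 were over 25% higher in the table of shRNA 2 and 1 was over 20% lower (the same fold downward), against 4.02% and 4.28% of the 11451 genes that averaged 10 or more in each table. The members on the higher side were *Mmp13*, *Mmp11*, *Mmp7*, *Adamts9*, *Mmp24* and *Adamts7*, thus 4 of the 8 Mmps and 2 of the 7 Adamts genes with such means, and *Adam12* was the member on the lower side. Low counts vary more. Among the genes with a mean under 100, 8.87% were higher and 7.48% lower, and 5 and 0 of the 12 members. Among those at 100 or more, 1.80% were higher and 2.81% lower, and 1 and 1 of the 16 members. The median log2 ratio of the 28 members was -0.0059, beside 0.0043 over all 11451 genes, and 13 members were above and 15 below a ratio of 1. The median member thus lay close to the median gene.

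**Figure D2:**
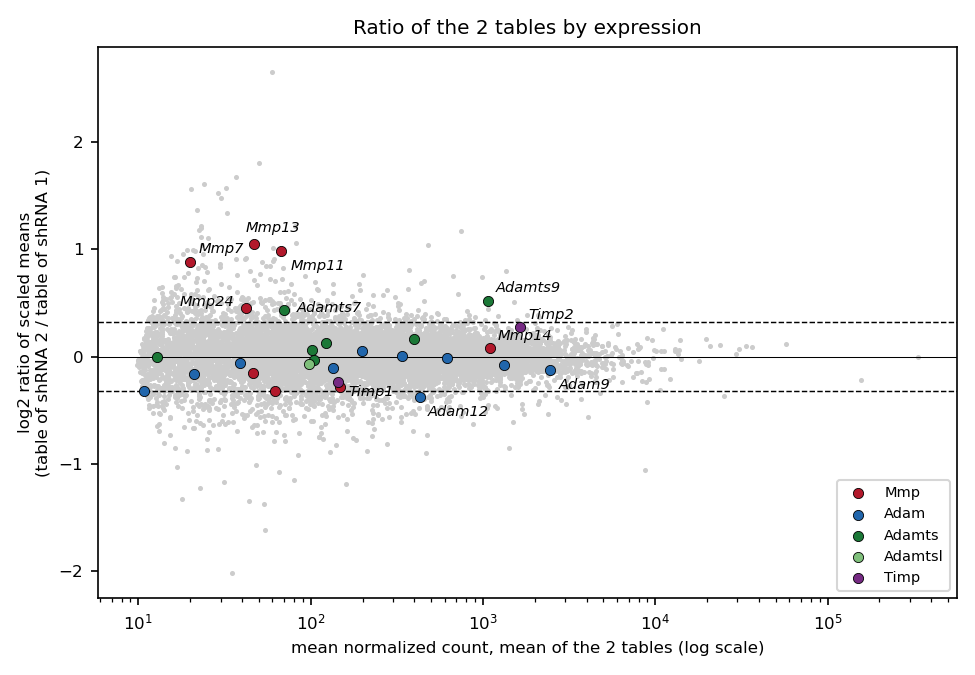
Log2 ratio of the scaled means (table of shRNA 2 over table of shRNA 1) against the mean normalized count of both tables (log axis) for 11451 genes (grey) and the 28 members that averaged 10 or more in each table (coloured by family), with dashed lines at 25% higher and 20% lower. *Mmp13*, *Mmp11* and *Mmp7* lie at or above 0.89 among genes of low counts, *Adamts9* at 0.52 among genes of high counts, and *Adam12* just below the lower line.

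*Mmp13* had means of 30.6 normalized counts in the shRNA 1 table and 66.3 in the shRNA 2 table, the latter 63.3 after scaling. Its ratio was 2.07, the highest of the members, and a ratio at least as high was seen in 0.50% of the genes with a mean under 100. The shRNA 2 group mean exceeded that of shRNA 1 by 65.3 normalized counts. If the controls are the same in both tables, the shRNA 2 mean was at least 65.3 and the control mean at most 61.2. Because the ratio is above 2, the shRNA 2 mean would then lie above the control mean. A ratio above 2 was found for 22 of 11451 genes (0.192%) and for 1 member.

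*Mmp11* (chr10:75385967-75400678) had means of 44.9 and 93.1, a ratio of 1.98 and a difference of 87.9 normalized counts between the hairpins. Of the genes with a mean under 100, 0.639% had as high a ratio. Its control mean could be up to 89.8, so its position against the control is not fixed by the pooled means used here. *Mmp11* overlaps *Gm867*, a gene in neither table, on its own strand. It also overlaps *Chchd10* on the opposite strand, whose ratio was 1.16. The libraries were strand-specific, but the strand option used in counting is not given in the sources used here. *Mmp7* had means of 14.0 and 27.1, a ratio of 1.85 and a difference of 23.7. Of the genes with a mean under 100, 0.945% were as high. This group was not narrowed to genes near the low mean of *Mmp7*, where ratios vary more. These 3 Mmps were the members of highest ratio at a mean of at least 10, and each was expressed below the protein-coding median.

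*Adamts9* had means of 874 and 1315, a ratio of 1.44 and a difference of 761 normalized counts. It was the single member with a mean of 100 or more on the higher side, and 0.344% of genes of that level had as high a ratio. *Mmp24* (chr2:155601078-155644102), a membrane-type Mmp known from neurons, had means of 35.6 and 51.0 and a ratio of 1.37. It overlaps the lincRNA *BC029722* on the opposite strand, whose ratio was 0.898. *Adamts7* (chr9:90057816-90102909) had means of 59.5 and 84.5 and a ratio of 1.36, and overlaps *Tbc1d2b*, also on the opposite strand, with means of 492 and 569. Ratios as high as those of *Mmp24* and *Adamts7* were seen in 4.56% and 4.86% of genes with a mean under 100.

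*Adam12* (chr7:141074882-141423829) had means of 486 and 391 and a ratio of 0.768, so the shRNA 1 mean was at least 1.30 times the shRNA 2 mean. The difference was -226 normalized counts (shRNA 2 minus shRNA 1), and 1.72% of genes of that level had as low a ratio. Without scaling, its ratio was 0.805 and no longer over 20% lower. *Adam12* overlaps *A130023I24Rik*, a gene in neither table, on its own strand. The nearest members that were not counted were *Adam32* at 0.80, *Mmp28* at 0.802 and *Mmp19* at 0.821, and on the other side *Timp2* at 1.21.

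**Figure D3:**
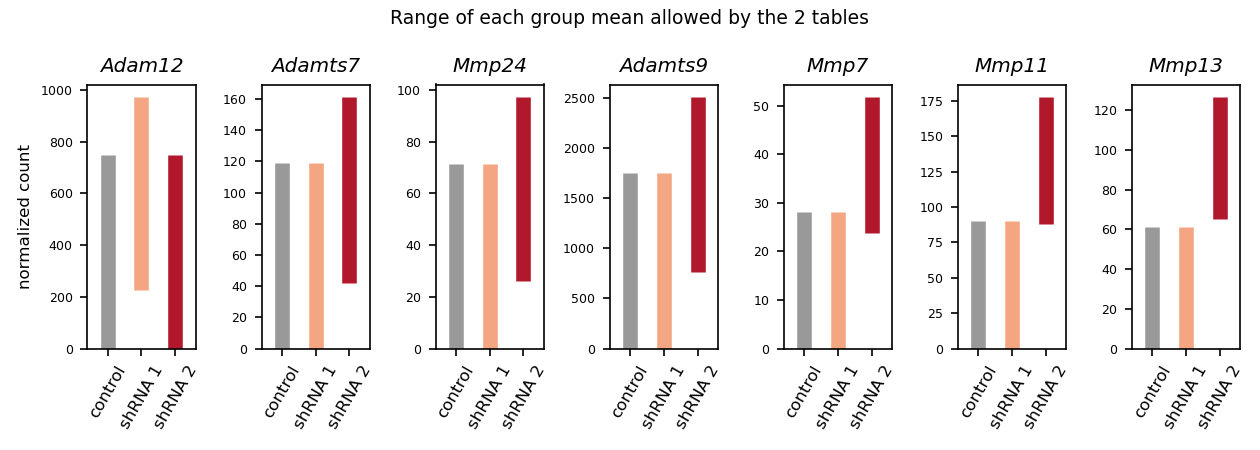
Range of the control, shRNA 1 and shRNA 2 group means (normalized counts, axes from 0) that the scaled tables allow for the 7 members counted as higher or lower, where the bars are limits from arithmetic and not errors. The bar of shRNA 2 clears both others for *Mmp13* alone, with a lowest value of 65.3 against a highest control value of 61.2. The limits assume the same controls in both tables.

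Of the 5 members of highest level, 0 passed the limits. Among all genes with a mean of 100 or more, 1.80% were higher and 2.81% lower, so a count of 0 among so few does not set these members apart. *Adam9* had a ratio of 0.917, *Adam10* of 0.945 and *Mmp14* of 1.06. Further down, *Adam17* had a ratio of 1.0 and *Adam23* of 0.994, whereas *Adamts9* and *Adam12*, of like or higher level, were past the limits as described above. Of the 2 inhibitors counted, 0 passed the limits after scaling. *Timp2* had means of 1489 and 1891 normalized counts and a ratio of 1.21, which was 1.27 and past the limit without scaling. *Timp1* had means of 156 and 139 and a ratio of 0.849. *Timp3*, under 10 in the table of shRNA 1 and so not counted, had a ratio of 1.21. Ratios as far out were seen in 2.80% of genes of that level for *Timp2* and 6.04% for *Timp1*. *Adam11*, *Adamtsl5* and *Adamts13* had ratios of 1.93, 1.57 and 1.52, but at means under 10 in at least 1 table, and were not counted.

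The RefSeq promoter table (GRCm38.p6, another assembly than the gene positions above) held 24 promoters of 23 members. In the 250 bases before the start, the AP-1 letters TGANTCA, which read the same on both strands, were found in 2 of the 24 promoters (8.33%), beside 6.75% of all 32851 promoters. The Sp1 letters GGGCGG, on either strand, were found in 16 (66.7%), beside 32.7% of all. The 2 promoters with the AP-1 letters were those of *Mmp13* and *Mmp7*, the end genes of the chromosome 9 cluster, in which they lay 35 and 63 bases before the start. Both promoters are shown with the AP-1 letters in capitals. They lie on the plus strand at chr9:7272264-7272513 for *Mmp13* and chr9:7691840-7692089 for *Mmp7*. The other *Mmp7* promoter lacked these letters. Of the other members higher in the table of shRNA 2, *Mmp11*, *Adamts9* and *Mmp24* lacked them too, and no promoter of *Adamts7* was held. A link between the letters and the ratios was not tested. Such letters are a description and not a site of binding.
Mmp13 promoter: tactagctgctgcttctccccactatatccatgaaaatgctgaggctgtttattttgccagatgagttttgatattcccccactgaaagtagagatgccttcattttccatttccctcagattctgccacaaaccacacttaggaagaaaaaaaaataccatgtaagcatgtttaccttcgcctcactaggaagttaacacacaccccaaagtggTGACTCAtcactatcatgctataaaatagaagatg
Mmp7 promoter: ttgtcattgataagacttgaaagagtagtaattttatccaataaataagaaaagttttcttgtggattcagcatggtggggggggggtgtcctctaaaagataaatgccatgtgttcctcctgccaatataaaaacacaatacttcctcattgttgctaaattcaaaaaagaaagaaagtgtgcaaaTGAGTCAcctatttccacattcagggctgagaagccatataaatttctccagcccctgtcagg

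Genes that act with these proteases were taken from hand-written lists. Of 17 activators and regulators, 14 were listed, led by *Bsg*, an inducer of Mmps, at 1168 per kilobase and *Furin*, which cuts the propeptides of Mmp14 and many Adams, at 245. Of the 13 that averaged 10 or more, 1 was over 25% higher in the table of shRNA 2, *Tspan14*, a tetraspanin partner of Adam10, at 1.38, and 1 lower, *Pzp*, a broad protease inhibitor, at 0.740, beside the 4.02% and 4.28% of all genes given above. *Reck*, a membrane-anchored Mmp inhibitor, was near the lower end at 0.904 per kilobase. Of the 11 genes of the plasminogen system, 8 were listed, with *Anxa2* at 1191 and *S100a10* at 793 per kilobase. With 1 of these 8 on each side, beside the same shares of all genes, its tissue-type activator *Plat* was higher at a ratio of 1.27. Its urokinase-type activator *Plau* was lower at 0.770.

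Of 20 other pericellular and matrix proteases and inhibitors, 12 were listed, led by the cathepsins *Ctsd*, *Ctsb* and *Ctsl* at 2463, 888 and 763 per kilobase. At 10 or more normalized counts, 1 of 10 stood on each side, beside 4.02% of all genes higher and 4.28% lower. The membrane serine protease *St14* was higher at 1.27 and the endopeptidase *Mme* lower at 0.583, with means of 233 and 142. Of 19 proteins known to be shed by Adams, 18 were listed, led by *App* at 3351, *Sdc4* at 826 and *Cdh1* at 544 per kilobase. On the higher side was 1 of these 18 and on the lower side 3, beside the same shares of all genes. The chemokine *Cxcl16* was higher at 1.31. The EGF receptor ligands *Ereg* and *Areg* and the syndecan *Sdc4* were lower at 0.612, 0.748 and 0.752. *Ereg* had means of 77.7 and 49.9 normalized counts and *Areg* of 23.1 and 18.1. Among genes with a mean under 100, 7.48% were lower. *Sdc4* had means of 2401 and 1892.

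All 7 hepatocyte markers were listed, from *Krt18* at 6567 to *Afp* at 4.51 per kilobase. Between them were *Krt8* at 4369, *Ttr* at 2057, *Alb* at 950, *Hnf4a* at 304 and *Apoa1* at 31.0. Of 5 biliary markers 4 were listed, between 168 for *Sox9* and 2488 for *Spp1*. Of 10 stellate cell and fibroblast markers 2 were listed, *Des* at 1.79 and *Col1a1* at 0.583, and of 5 endothelial markers 0. Of 6 annotated macrophage and leukocyte markers 3 were listed, *Cd68* at 21.3, *Csf1r* at 4.99 and *Ptprc* at 0.904. The summed level of the macrophage list was 25.9 in the table of shRNA 1 and 28.5 in that of shRNA 2, and its part in the results for the members was not tested.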

How the data were processed

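RNA-seq libraries from AML12 cells were grouped by their titles as control, shRNA 1 and shRNA 2 (3 each). Per the labels and the study's methods, the authors mapped reads to mm9 with TopHat2, assigned them by HTSeq to genes of GENCODE M1 and normalized and compared the groups in DESeq2 (version 1.8.2). The signal used is the authors' deposited mean normalized count of each gene over the 6 libraries of a table. The deposited tables also hold the authors' log2 fold change, standard error, statistic, p-value and adjusted p-value of each hairpin against the control, which were not used. Therefore no model was fitted, and the precision of single genes is not given here.

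Means of shRNA 2 were divided by 1.05, the median ratio over 7757 genes averaging 100 or more in each table. A ratio was counted when over 25% higher or 20% lower, for genes averaging 10 or more in each. The limits on group means assume identical controls in both tables. The computation was tested on simulated data with counting error alone, the same controls in both tables and changes placed in genes averaging 100 or more. That test did not cover ratios of genes with lower counts, further spread between libraries or differing controls. Lengths are merged GENCODE M1 exons, and every listed gene identifier matched that annotation. The protein of each gene was read from its longest coding transcript. Named were all listed Timps, the 4 most abundant members of each other class, all members past these limits or listed in 1 table, and of related lists the top 3 and those past the limits, at most 5 per direction. A gene that this rule names is not reported here. Other members, markers and overlapping genes were named as values required. Spans of 20 of the 37 members overlap another gene, 5 on the same strand. Members and lists were chosen with earlier results of these data known. Python 3.11.15, pandas 2.3.3, numpy 2.4.6 and matplotlib 3.10.9 were used.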

Additional observations from a re-analysis of the deposited data

How the results depend on the processing

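The count of members over 25% higher in the table of shRNA 2 (6) became 2 at a minimum mean of 50 and 1 at 100, and was 3 at 1.5-fold. The count on the lower side (1) became 0 without scaling, 5 with a limit of 15% higher or as many fold lower, and 0 at 1.5-fold. The shares of all genes at these settings are not given here, and a higher minimum mean leaves fewer members. These counts therefore do not show whether the members differ more or less from all genes. By level, 5 of 12 members with a mean under 100 were higher, beside 8.87% of all genes. At 100 or more, 1 of 16 was higher, beside 1.80%. On the lower side were 0 of 12, beside 7.48%, and 1 of 16, beside 2.81%. The median level of 18.8 per kilobase became 20.7 with the longest transcript as length, 21.6 in the table of shRNA 2 alone and, as normalized counts without length, 70.1. The Timp share of 23.1% became 16.5% without length. Scaling by summed means left all 28 ratios on their side of the limits. Without scaling 26 did so, *Adam12* (0.805) fell inside them and *Timp2* (1.27) passed them. No ratio counted as higher or lower changed direction under either. No paired analysis was possible because the tables give no value per library, and leaving out single libraries was not run for the same reason. Counting error of low genes is included in every ratio, and the spread between libraries is not known from the pooled means.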
